A study of Mus musculus with 8 samples.

Results

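The 10 protein-coding genes Ralgapa2, Kiz, Xrn2, Nkx2-2, Foxa2, Thbd, Cd93, Nxt1, Gzf1 and Napb lie within about 1.4 Mb of Pax1 on mouse chromosome 2. They were taken by name from a deposited table of 27179 genes, and all 10 had enough counts to be tested. The levels come from whole spines of mouse embryos at E18.5 in 8 libraries: 2 from female Pax1-Enh knockout (KO), 2 from female wild type (WT), 2 from male KO and 2 from male WT embryos. The sources used here give neither the strain, nor the coordinates of the deleted region, nor any allele that both genotypes share. The labels do not say whether a library is 1 embryo or a pool, nor whether a group's 2 libraries come from different embryos; the p-values therefore cover only how far these samples spread. The series' title describes the deleted region as sex-associated and linked to adolescent idiopathic scoliosis, so the question asked here was whether genes on either side of Pax1 differ with the deletion, and whether they do so alike in both sexes.

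Pax1 is a paired-box transcription factor of the sclerotome, the part of the somite that gives rise to vertebrae and intervertebral discs. Enhancers can act over long genomic distances and on more than one promoter, so the neighbours of a targeted enhancer are commonly measured together with its presumed target. The neighbours of Pax1 have unlike roles: Nkx2-2 and Foxa2 pattern the ventral neural tube and midline, Thbd and Cd93 are surface proteins of blood vessels, Napb acts in neurons, and Ralgapa2, Kiz, Xrn2, Nxt1 and Gzf1 belong to general cell machinery or broad regulation.

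The 4 KO libraries held 59722279 to 67575728 counts and the 4 WT libraries 35181518 to 48021848, so every KO library was deeper than every WT library and depth and genotype cannot be told apart. Sex-linked genes matched the labelled sex in all 8 libraries. Cartilage markers were abundant (Col2a1 at 3526 to 22474 CPM, counts scaled to TMM-normalised library totals), and the notochord gene Noto was at 0 in all 8. Library content varied within and between groups: mitochondrial genes took 13.6% and 4.66% of counts for female KO, 5.55% and 7.27% for female WT, 4.56% and 15.6% for male KO, and 18.3% and 20.9% for male WT. Both male WT libraries were above all other libraries. This share therefore cannot be cleanly separated from genotype in males or from sex in WT, and values fitted with it as a covariate are descriptions there. Pax1 itself, whose coding region the labels do not say was removed, had 30.4 and 19.9 CPM in female KO against 27.0 and 18.6 CPM in female WT, and 28.3 and 18.9 CPM in male KO against 20.4 and 17.0 CPM in male WT. Its log2 fold change over both sexes was 0.24 (SE 0.22, edgeR adjusted p = 0.923).

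On GRCm38.p6, the RefSeq assembly of the mm10 build, 4 of the 10 genes start on the low-coordinate side of Pax1 and 6 on the other side. Distances run between starts, taken as the lowest coordinate of each gene whatever its strand. For genes on the minus strand they are therefore not promoter distances. The nearest is Nkx2-2, whose start lies 185 kb from that of Pax1, and the farthest is Napb at 1332 kb. Ralgapa2, on the minus strand, has its start 1122 kb away but its nearer end 850 kb from Pax1. The next tested gene beyond Napb was Cst8, whose start lies 1437 kb away, and the next beyond Ralgapa2, at 1122 kb, was Insm1 at 1140 kb. Insm1, Sstr4 and the noncoding genes Nkx2-2os and AI646519 were tested and lie within the same distance without being among the 10, and their values are given with the other genes of the stretch. Promoter windows of 300 bases were in the RefSeq table for 8 of the 10. Each runs from 250 bases before to 50 after an annotated transcription start, which need not be the end of the gene's span. Those of Nkx2-2 and Xrn2 are given here because these neighbours, 185 and 349 kb from Pax1, are the closest to it by start, and 1 is among the most variable and the other the least variable of the 10 over these libraries. Each is read along its gene's own strand, in lower case with every CpG (the letters CG, the same on both strands) in capitals. The Nkx2-2 window is chr2:147186353-147186652 on the minus strand, and the Xrn2 window is chr2:147012749-147013048 on the plus strand. The first lies inside the Nkx2-2 span of 147176485 to 147195434. Most of the second lies inside the Xrn2 span, which begins at 147012755.
Nkx2-2: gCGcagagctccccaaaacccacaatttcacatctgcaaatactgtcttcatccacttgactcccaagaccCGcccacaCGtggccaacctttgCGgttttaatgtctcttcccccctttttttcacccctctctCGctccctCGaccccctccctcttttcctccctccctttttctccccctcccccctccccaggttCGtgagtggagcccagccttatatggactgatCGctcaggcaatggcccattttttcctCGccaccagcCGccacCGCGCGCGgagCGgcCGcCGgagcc
Xrn2: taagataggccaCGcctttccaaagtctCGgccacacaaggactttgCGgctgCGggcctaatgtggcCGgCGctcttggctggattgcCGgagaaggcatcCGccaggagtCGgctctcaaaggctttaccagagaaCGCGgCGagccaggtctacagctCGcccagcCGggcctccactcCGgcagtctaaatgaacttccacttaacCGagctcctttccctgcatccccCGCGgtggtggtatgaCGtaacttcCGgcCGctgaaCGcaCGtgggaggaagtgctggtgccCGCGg
The Nkx2-2 window holds 17 CpGs and the Xrn2 window 25, against a median of 7 over 32851 RefSeq promoter windows of the same length. At least as many as in Nkx2-2 were found in 31.4% of those windows, and at least as many as in Xrn2 in 18.4%. The Ralgapa2 window, with 39, had the highest count among the 8 genes.

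Levels between genes were compared as CPM per kb of the longest annotated transcript. Xrn2 had the highest mean of the 10, 16.4 CPM per kb, and was followed by Cd93 at 14.6, Napb at 13.8, Nxt1 at 12.0, Kiz at 11.1, Thbd at 10.1 and Gzf1 at 9.35 CPM per kb. Foxa2 at 1.99, Ralgapa2 at 1.49 and Nkx2-2 at 1.07 CPM per kb formed a lower group, below the median of 5.42 over 16421 tested genes with a length. Neighbours in this order overlapped in range over the 8 libraries except at 1 step: the lowest library of Gzf1 (8.17 CPM per kb) was above the highest of Foxa2 (2.83). The genes also differed in how much they varied between libraries. The coefficient of variation of CPM over the 8 libraries was 5.75% for Xrn2, lower than in all but 0.221% of tested genes, 9.97% for Gzf1 and 12.6% for Thbd. At the other end it was 41.1% for Nkx2-2 and 47.7% for Ralgapa2, beside a median of 26.5% over tested genes.

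**Figure D1:**
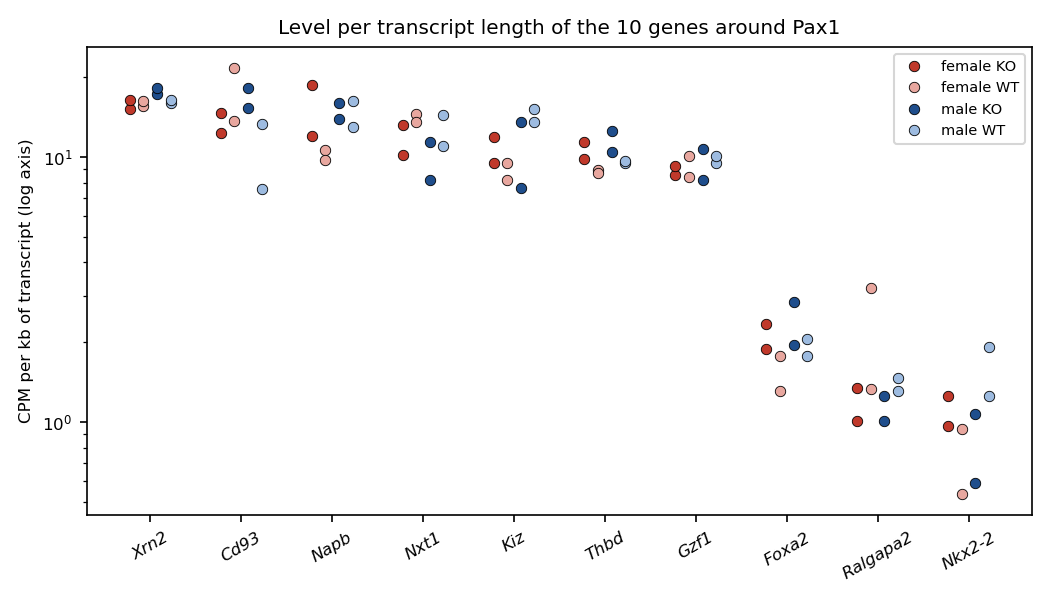
Level of the 10 genes per transcript length (CPM per kb, log axis) in each library, 1 point per library, coloured by sex and genotype and ordered by mean level. Xrn2 to Gzf1 form an upper band that reaches down to 7.57 (Cd93 in 1 male WT library), and no point of Foxa2, Ralgapa2 or Nkx2-2 is above 3.21.

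None of the 10 genes passed an adjusted p of 0.05 in KO against WT in females, in males or over both sexes, by edgeR's quasi-likelihood test, DESeq2 or limma voom. By edgeR 0% of 18104 tested genes were called in each of these 3 comparisons, and by DESeq2 0.811% in females, 2.66% in males and 0.779% over both sexes. At an unadjusted edgeR p under 0.05, 1 of the 10 (Ralgapa2) passed in females beside 9.27% of all genes, 0 in males beside 14.8%, and 0 over both sexes beside 6.83%. DESeq2's unadjusted test passed Ralgapa2 in females, Cd93 in males and 0 of the 10 over both sexes, and limma voom's passed 0 in each of the 3. The share of all genes that passed these unadjusted tests of DESeq2 and limma voom was not counted for any comparison, so nothing can be set beside them. Of the 10 fold changes, 5 were positive in females (52.6% of all genes), in males (45.4%) and over both sexes (48.9%). Their median log2 fold change was 0.12 in females, -0.01 in males and 0.00 over both sexes, beside 0.03, -0.06 and -0.01 over all tested genes. The precision differs by gene: over both sexes the 95% interval lay within 0.5-fold to 2-fold for 8 genes, and reached past it for Ralgapa2 and Nkx2-2.

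**Figure D2:**
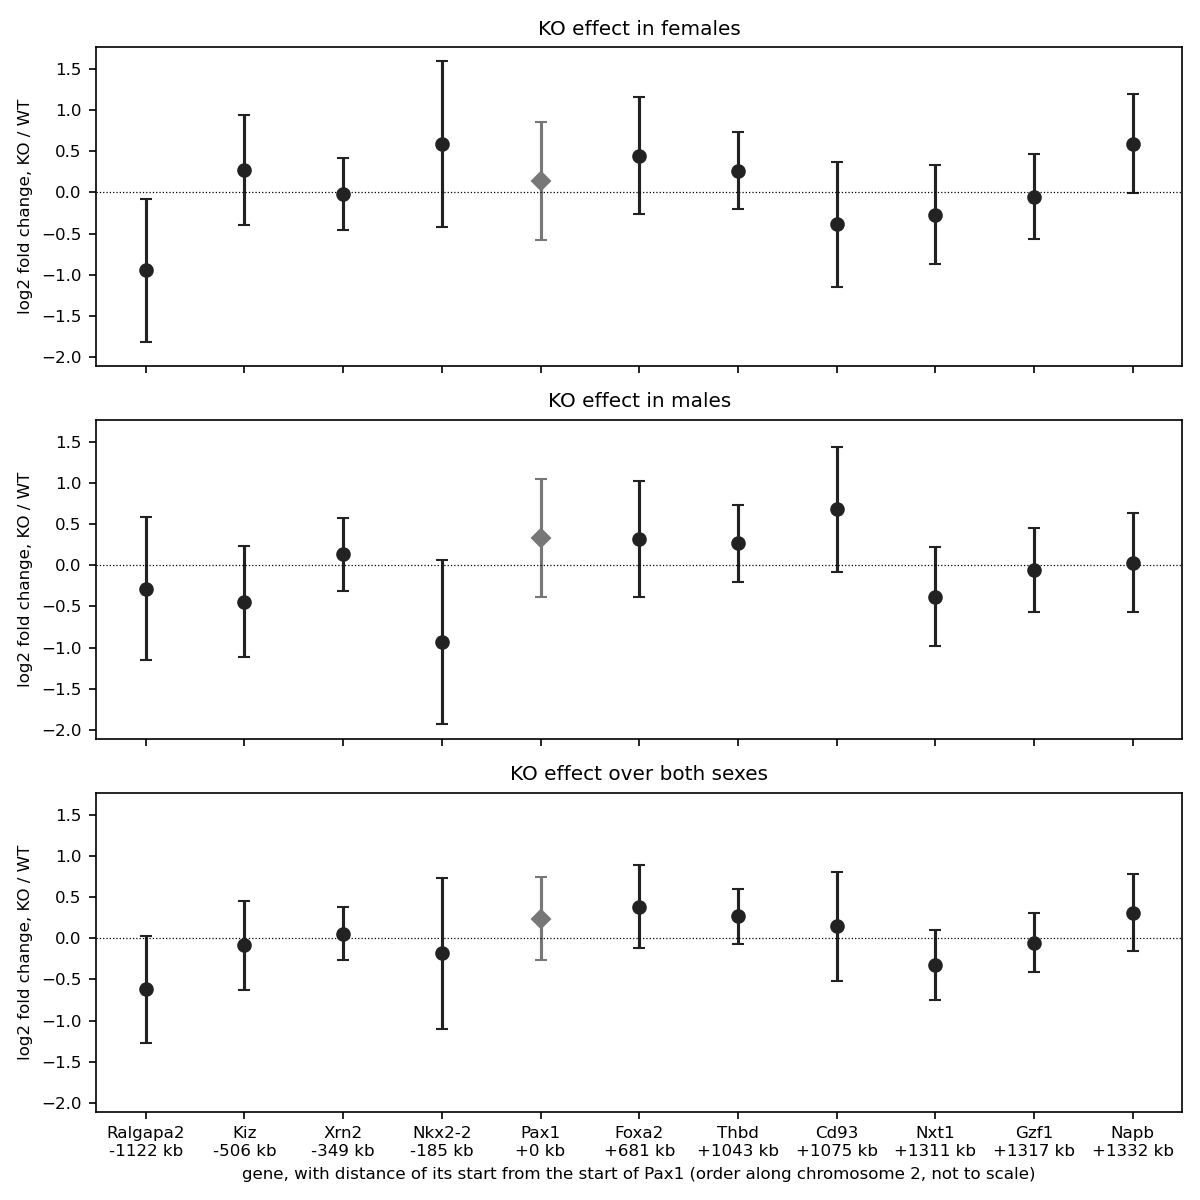
Log2 fold change of KO over WT for the 10 genes and Pax1 (grey diamond), in order along chromosome 2, in females (top), in males (middle) and over both sexes (bottom). Points are edgeR estimates and bars 95% confidence intervals from 2 libraries a group (4 a genotype over both sexes); in females the bar of Ralgapa2 does not reach 0, and every other bar crosses it.

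**Figure D3:**
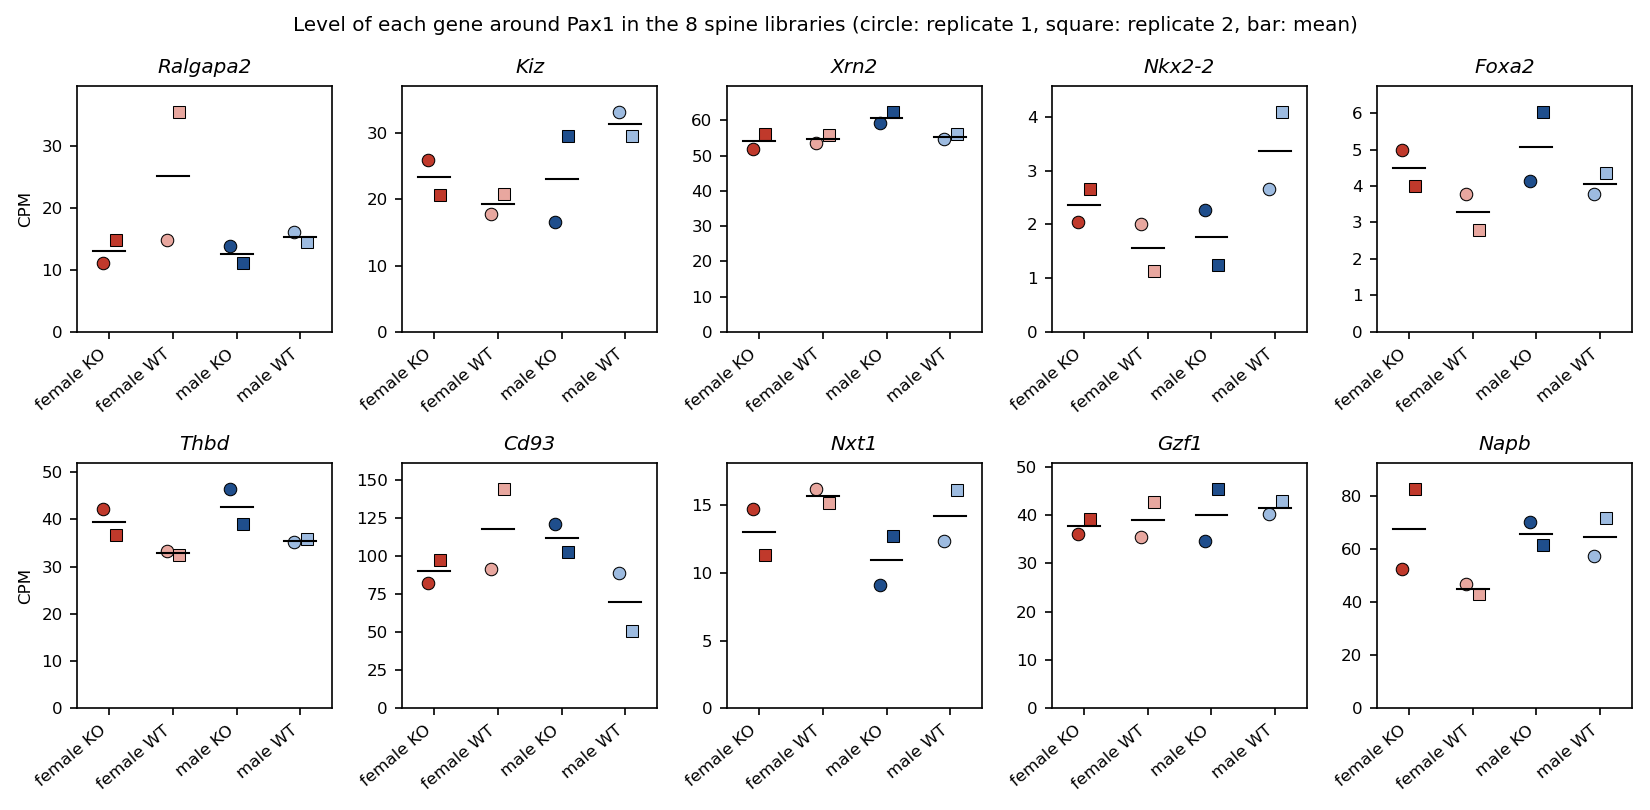
CPM of each gene in each library (circle, replicate 1; square, replicate 2) with the mean of each group as a bar, on axes that start at 0. Thbd is the gene whose 4 KO points lie above its 4 WT points, and Ralgapa2 shows 1 female WT library at 35.4 CPM.

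Nkx2-2 (Entrez gene 18088, minus strand, 147176485 to 147195434) encodes a homeobox factor of the ventral-most neural progenitors and of the oligodendrocyte lineage. It had 2.05 and 2.66 CPM in female KO against 2.00 and 1.14 CPM in female WT. In males it had 2.27 and 1.24 CPM in KO against 2.66 and 4.08 CPM in WT. Both female KO libraries were above both female WT libraries and both male KO libraries were below both male WT libraries. The values rest on 41 to 187 counts a library. The log2 fold change was 0.58 in females (SE 0.44, adjusted p = 0.628) and -0.93 in males (SE 0.44, adjusted p = 0.355), by edgeR. With both sexes fitted together it was -0.18 (SE 0.41, adjusted p = 0.986), and its sign there changed when male KO replicate 2 (0.14) or male WT replicate 2 (0.09) was left out. In males it ranged over the libraries left out between -1.44, without KO replicate 1, and -0.57, without KO replicate 2; in females between 0.23, without WT replicate 2, and 1.04, without WT replicate 1. The antisense gene Nkx2-2os overlaps Nkx2-2. The kit was stranded but the strand setting of the counting is not given, so it is not known whether reads of the pair were told apart. Nkx2-2os itself had 7 to 19 counts a library.

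Olig2, another factor of ventral cord progenitors and oligodendrocyte precursors, had its lowest values in the same libraries as Nkx2-2. It was at 7.09 and 8.71 CPM in female KO, 8.46 and 4.29 CPM in female WT, 8.04 and 3.75 CPM in male KO, and 9.12 and 13.0 CPM in male WT; it was singled out after its values were seen. The 10 ventral cord and oligodendrocyte precursor markers, led by Pdgfra and Cspg4, summed to 304 and 402 CPM in female KO, 326 and 247 CPM in female WT, 440 and 313 CPM in male KO, and 283 and 266 CPM in male WT, so the list's sum does not have the order of Nkx2-2. Pdgfra alone had 89.7 to 175 CPM, so the sum says little about the rarer factors. Of the 9 markers tested, 7 had positive and 2 negative log2 fold changes in females, and 4 positive and 5 negative in males. With the list's mean log2 level as a covariate, the Nkx2-2 log2 fold change was 0.20 in females and -0.77 in males (adjusted p = 0.781 and 0.213). Fitted together with the mitochondrial share, which in males goes with genotype, it was 0.74 in females and -1.58 in males (adjusted p = 0.455 and 0.325). The part of cell content in the Nkx2-2 values was not tested beyond this, and in bulk tissue fewer cells of a type and less RNA per cell cannot be told apart.

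Foxa2 (Entrez gene 15376, minus strand, 148042877 to 148046969) encodes a forkhead factor of the notochord, floor plate and endoderm. It had 4.98 and 4.0 CPM in female KO against 3.78 and 2.80 CPM in female WT, and 4.14 and 6.02 CPM in male KO against 3.77 and 4.36 CPM in male WT. The female groups did not overlap, KO being higher; in males the lower KO library lay between the 2 WT libraries. Its log2 fold change was 0.45 in females (SE 0.31, adjusted p = 0.607), 0.32 in males (SE 0.31, adjusted p = 0.624) and, with both sexes fitted together, 0.38 (SE 0.22, adjusted p = 0.801), by edgeR. The over-both-sexes value stayed between 0.28 and 0.50 whichever library was left out; in males it was 0.03 without KO replicate 2 and 0.69 once the fit took in the mitochondrial share (adjusted p = 0.461). The 9 notochord and nucleus pulposus markers, led by Car3, summed to 667 and 519 CPM in female KO, 720 and 1499 CPM in female WT, 476 and 586 CPM in male KO, and 781 and 592 CPM in male WT, so both KO sums were below both WT sums in each sex. In females the order is that of Car3, which alone had 258 and 225 CPM in KO and 426 and 1282 CPM in WT. Car3 was highest in female WT replicate 2 and male WT replicate 1 (463 CPM). Those libraries also had the highest adipocyte marker sums, 5005 and 5072 CPM. The sum is therefore not a measure of notochord alone, and the part of fat in it was not tested. Of the 8 markers tested in females, 4 had positive and 4 negative log2 fold changes, with a median of 0.06 beside 0.03 over all genes. In males all 8 were negative, with a median of -0.33 beside -0.06, and none of the 8 passed an adjusted p of 0.05 in either sex by edgeR. T, which with Noto marks the notochord, was at 28.4 and 13.9 CPM in female KO, 19.2 and 17.6 CPM in female WT, 12.1 and 15.1 CPM in male KO, and 14.1 and 23.0 CPM in male WT. Whether the notochord share of a library moves Foxa2 was not tested otherwise than by the list as a covariate. That fit gave a Foxa2 value of 0.62 over both sexes (unadjusted p = 0.0351, adjusted p = 0.565, edgeR). With the mitochondrial share instead it was 0.47 (unadjusted p = 0.0441, adjusted p = 0.389, edgeR). The share of all genes under an unadjusted 0.05 in these fits was not counted. RNA of endodermal organs was also present. The 9 lung and endoderm epithelium markers, led by Foxj1 and Cdh1, summed to 8.51 to 38.4 CPM. The 6 pancreatic acinar markers summed to 1803 CPM in female WT replicate 1 and to 1.04 to 5.98 CPM in the other libraries. The part of either in the Foxa2 values was not tested.

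Thbd (Entrez gene 21824, minus strand, 148404471 to 148408188) encodes thrombomodulin, the endothelial thrombin receptor that switches on protein C. It had 42.2 and 36.7 CPM in female KO against 33.2 and 32.5 CPM in female WT. In males it had 46.5 and 39.0 CPM in KO against 35.2 and 35.8 CPM in WT. Thbd was the 1 gene of the 10 whose 4 KO libraries were all above its 4 WT libraries, which 1.68% of all tested genes did; 0 of the 10 had all KO libraries below all WT libraries, beside 1.63%. Its means were 41.1 ± 4.23 CPM in KO and 34.2 ± 1.59 CPM in WT (SD, n = 4 each). The change was 1.20-fold with a 95% interval of 0.955 to 1.51 (log2 fold change 0.27, SE 0.15, edgeR adjusted p = 0.783), so it did not pass the test. The log2 value was 0.26 in females and 0.27 in males, and over both sexes it stayed between 0.21 and 0.32 whichever library was left out and was 0.26 both with the mitochondrial share and with the endothelial marker level as a covariate. Thbd did not follow the endothelial markers: female WT replicate 2, its lowest library at 32.5 CPM, had their highest sum, 787 CPM. The 8 adipocyte markers summed to 228 to 467 CPM in the KO and 763 to 5072 CPM in the WT libraries, and were not used as a covariate. All KO libraries were also the deeper ones, and with counts thinned at random to the total of the smallest library the value was 0.26. Thinning makes the totals alike and does not remove other content that goes with genotype.

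Cd93 (Entrez gene 17064, minus strand, 148436651 to 148443535) encodes a C-type lectin of endothelial and myeloid cells. It had 82.3 and 97.4 CPM in female KO against 91.2 and 144 CPM in female WT, and 121 and 102 CPM in male KO against 89.1 and 50.6 CPM in male WT. Female groups overlapped and male groups did not, male KO being higher. Its log2 fold change was -0.39 in females (SE 0.33, adjusted p = 0.660) and 0.68 in males (SE 0.33, adjusted p = 0.367), by edgeR; with both sexes fitted together it was 0.14 (SE 0.29, adjusted p = 0.983). Without female WT replicate 2 the female value was -0.03, and without male WT replicate 2 the male value was 0.33. The 11 endothelial markers, led by Pecam1 and Cdh5, summed to 452 and 497 CPM in female KO, 551 and 787 CPM in female WT, 650 and 478 CPM in male KO, and 447 and 268 CPM in male WT. The 2 libraries with the highest Cd93, female WT replicate 2 and male KO replicate 1, had the highest endothelial sums, and male WT replicate 2 had the lowest of both. With the markers' mean log2 level as a covariate the Cd93 log2 fold change was 0.12 in females and 0.04 in males (adjusted p = 1.00 and 0.980).

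Napb (Entrez gene 17957, minus strand, 148693985 to 148732425) encodes beta-SNAP, which helps NSF take apart SNARE complexes after vesicle fusion and is enriched in brain. It had 52.7 and 82.7 CPM in female KO against 47.0 and 43.1 CPM in female WT, and 70.3 and 61.5 CPM in male KO against 57.4 and 71.7 CPM in male WT. Female groups did not overlap, with KO higher, and male groups did. The log2 fold change was 0.59 in females (SE 0.26, adjusted p = 0.540), 0.03 in males (SE 0.26, adjusted p = 0.963) and, with both sexes fitted together, 0.31 (SE 0.21, adjusted p = 0.839), by edgeR; without female KO replicate 2 the female value was 0.23. The 10 neuron markers, led by Stmn2 and Tubb3, summed to 2429 and 2842 CPM in female KO, 2079 and 1837 CPM in female WT, 2474 and 2131 CPM in male KO, and 2801 and 3248 CPM in male WT. Both female WT libraries were the lowest for Napb and for these markers together. With the neuron level as a covariate the Napb value was -0.20 in females and 0.68 in males (adjusted p = 0.830 and 0.319).

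**Figure D4:**
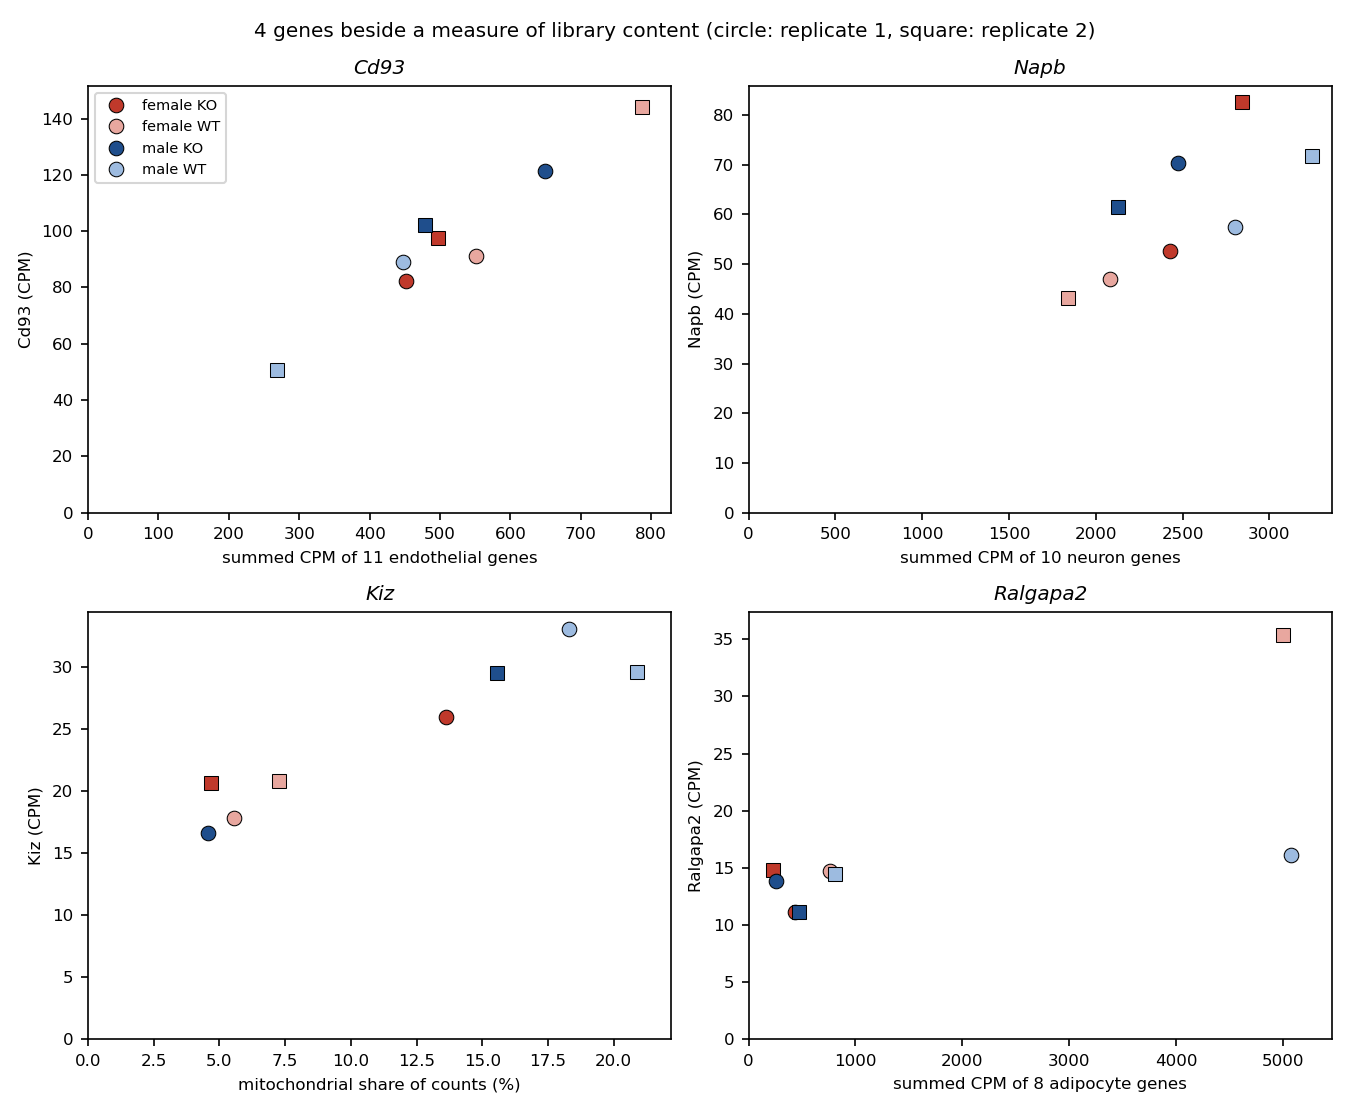
CPM of Cd93, Napb, Kiz and Ralgapa2 in the 8 libraries plotted against the summed CPM of 11 endothelial markers, the summed CPM of 10 neuron markers, the mitochondrial share of counts (%) and the summed CPM of 8 adipocyte markers. Cd93 is highest in female WT replicate 2 with an endothelial sum of 787 CPM, and the 4 libraries with a mitochondrial share of 13.6% or more have 25.9 CPM or more of Kiz.

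Ralgapa2 (Entrez gene 241694, minus strand, 146239876 to 146512254) encodes a catalytic subunit of the complex that turns off the Ral GTPases. It had 11.1 and 14.8 CPM in female KO against 14.8 and 35.4 CPM in female WT, and 13.9 and 11.2 CPM in male KO against 16.1 and 14.4 CPM in male WT. Female WT replicate 2 was more than 2 times any other library; the other 7 lay between 11.1 and 16.1 CPM. The log2 fold change was -0.95 in females (SE 0.38, unadjusted p = 0.0361, adjusted p = 0.532), -0.29 in males (SE 0.38, adjusted p = 0.730) and, with both sexes fitted together, -0.62 (SE 0.29, adjusted p = 0.744), by edgeR. Without female WT replicate 2 the female value was -0.19 and the value over both sexes -0.23, so the lower level in KO rests largely on that library. The 8 adipocyte markers, led by Fabp4 and Ucp1, summed to 436 and 228 CPM in female KO, 763 and 5005 CPM in female WT, 253 and 467 CPM in male KO, and 5072 and 810 CPM in male WT; male WT replicate 1 had as high a sum as female WT replicate 2 and 16.1 CPM of Ralgapa2. Its part in the result was not tested.

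Kiz (Entrez gene 228730, plus strand, 146855825 to 146970098) encodes kizuna, a centrosomal protein that Plk1 phosphorylates to keep spindle poles intact. It had 25.9 and 20.6 CPM in female KO against 17.8 and 20.8 CPM in female WT, and 16.6 and 29.5 CPM in male KO against 33.1 and 29.6 CPM in male WT. The male groups were just separated, with KO lower, and female groups overlapped. The log2 fold change was 0.27 in females (SE 0.30, adjusted p = 0.720), -0.44 in males (SE 0.30, adjusted p = 0.481) and, with both sexes fitted together, -0.09 (SE 0.24, adjusted p = 0.990), by edgeR. Kiz was higher, at 25.9 to 33.1 CPM, in the 4 libraries whose mitochondrial share was at least 13.6%, and 16.6 to 20.8 CPM in the other 4. With that share as a covariate the male value was 0.04, but in males the share is higher in both WT libraries and cannot be cleanly separated from genotype. The part of the share in the Kiz values was not tested otherwise.

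Xrn2 (Entrez gene 24128, plus strand, 147012755 to 147078000) encodes a nuclear exoribonuclease that acts in transcription termination. It had 52.0 and 56.1 CPM in female KO against 53.6 and 55.9 CPM in female WT, and 59.3 and 62.3 CPM in male KO against 54.7 and 56.1 CPM in male WT. Male KO libraries were both above the male WT libraries, and female groups overlapped. Xrn2 had a log2 fold change of -0.02 in females (SE 0.19, adjusted p = 0.976), 0.13 in males (SE 0.19, adjusted p = 0.754) and, with both sexes fitted together, 0.06 (SE 0.14, adjusted p = 0.990), by edgeR. The 95% interval over both sexes was 0.835-fold to 1.30-fold.

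Nxt1 (Entrez gene 56488, plus strand, 148672615 to 148676026) encodes a cofactor of Nxf1 in mRNA export. It had 14.7 and 11.3 CPM in female KO against 16.2 and 15.1 CPM in female WT, and 9.11 and 12.7 CPM in male KO against 12.3 and 16.1 CPM in male WT. Female groups did not overlap, with KO lower, and male groups did. Nxt1 had a log2 fold change of -0.27 in females (SE 0.26, adjusted p = 0.694), -0.38 in males (SE 0.26, adjusted p = 0.495) and, with both sexes fitted together, -0.33 (SE 0.19, adjusted p = 0.798), by edgeR. It was negative in both sexes with each library left out in turn, and 0.03 in males with the mitochondrial share as a covariate.

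Gzf1 (Entrez gene 74533, plus strand, 148679384 to 148692949) encodes a GDNF-inducible zinc finger transcription factor. It had 36.2 and 39.1 CPM in female KO against 35.4 and 42.7 CPM in female WT, and 34.6 and 45.4 CPM in male KO against 40.3 and 42.8 CPM in male WT. The groups overlapped in both sexes, each log2 fold change was between -0.06 and -0.05 (SE 0.22 in each sex, edgeR adjusted p = 0.936 in females and 0.916 in males), and the interval over both sexes was 0.751-fold to 1.24-fold. Gzf1 and Napb are neighbours on opposite strands whose ends face each other.

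Counting the genes whose groups did not overlap, 4 of the 10 were higher in female KO (Nkx2-2, Foxa2, Thbd and Napb; 25.9% of all genes did so) and 1 was lower (Nxt1; 26.2%). In males 3 were higher in KO (Xrn2, Thbd and Cd93; 19.7% of all genes) and 3 lower (Ralgapa2, Kiz and Nkx2-2; 23.9%). Nkx2-2 was the gene that separated in opposite directions in the sexes, as 14.2% of all genes did, and Thbd the one that separated in the same direction, as 7.45% did.

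The difference between the KO effect in females and that in males was tested as 1 contrast. None of the 10 passed an adjusted p of 0.05 by edgeR, DESeq2 or limma voom, beside 0% of all genes by edgeR and 2.04% by DESeq2. Nkx2-2 passed an unadjusted p of 0.05 (16.7% of all genes did), with a log2 difference of 1.52 (SE 0.62, unadjusted p = 0.0384, adjusted p = 0.287, edgeR). Its size without single libraries ran between 1.13 and 2.02, with the marker list as a covariate it was 0.97, and fitted together with the mitochondrial share it was 2.32 (unadjusted p = 0.0123, adjusted p = 0.339, edgeR). Cd93 had -1.07 (SE 0.47, adjusted p = 0.298) and 0.08 with the endothelial covariate, Kiz had 0.71 (SE 0.42, adjusted p = 0.390), Ralgapa2 -0.66 (SE 0.54, adjusted p = 0.521) and Napb 0.56 (SE 0.37, adjusted p = 0.441). The other 5 lay between -0.15 (Xrn2) and 0.13 (Foxa2), all with adjusted p of at least 0.783. In the fit with the mitochondrial share the difference was 0.07 for Kiz, -0.35 for Ralgapa2 and 0.97 for Napb, whose unadjusted p was then 0.0365 (adjusted p = 0.404, edgeR). DESeq2's unadjusted test passed Cd93 and Nkx2-2, and limma voom's passed Nkx2-2, with the share over all genes not counted.

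In female against male WT, 0 of the 10 genes passed an adjusted p of 0.05 by edgeR, DESeq2 or limma voom, and edgeR called 0.00552%, limma voom 0.011% and DESeq2 12.1% of all genes. Unadjusted edgeR p was under 0.05 for Nkx2-2 and Kiz, beside 27.3% of all genes. The log2 difference, female minus male, was -1.10 for Nkx2-2 (SE 0.44, adjusted p = 0.162) and -0.70 for Kiz (SE 0.30, adjusted p = 0.174). Cd93 had 0.75 (SE 0.33, adjusted p = 0.185), Ralgapa2 0.71 (SE 0.38, adjusted p = 0.248) and Napb -0.52 (SE 0.26, adjusted p = 0.229). Fitted together with the mitochondrial share, these were -1.91 for Nkx2-2, 0.04 for Kiz, 0.40 for Cd93, 0.38 for Ralgapa2 and -0.99 for Napb, with adjusted p of at least 0.368 by edgeR. Among the WT libraries the share was higher in both male ones, so it cannot be cleanly separated from sex in this fit. Ranges did not overlap for 5 genes: Cd93 was higher in female WT (31% of all genes) and Kiz, Nkx2-2, Thbd and Napb were lower (35.1%). Over both genotypes 0 of the 10 passed an adjusted or unadjusted 0.05 by edgeR, DESeq2 or limma voom, edgeR called 0.0166%, limma voom 0.0276% and DESeq2 1.3% of all genes (8.67% by edgeR's unadjusted p). Ranges over both genotypes separated for 0 of the 10, beside 2.23% (females higher) and 1.88% (females lower) of all genes, and the smallest adjusted p was that of Kiz (-0.34, SE 0.24, adjusted p = 0.588).

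Beyond these, 23 other annotated genes in the table start within 2 Mb of Pax1, of which 11 were tested and 0 were called by edgeR in any of the 6 comparisons. At an unadjusted p under 0.05, Cst8 in males had 0 and 1 counts in KO against 0 and 73 counts in WT, a cystatin gene whose difference rests on 1 library. AI646519, a long noncoding gene whose annotation overlaps Pax1 on the opposite strand, had 4.14 and 1.64 CPM in female KO and 1.78 and 1.33 CPM in female WT. In males it had 0.902 and 2.14 CPM in KO and 3.01 and 2.81 CPM in WT. Its female minus male KO effect was 1.83 (SE 0.76, edgeR adjusted p = 0.287), and 0.36 when fitted together with the mitochondrial share. Whether its reads were told apart from those of Pax1 is likewise not known. Nkx2-2os, the antisense gene that overlaps Nkx2-2, had 0.286 and 0.256 CPM in female KO against 0.180 and 0.194 CPM in female WT, and 0.209 and 0.353 CPM in male KO against 0.419 and 0.161 CPM in male WT. Its log2 fold change was 0.53 in females (SE 0.62, adjusted p = 0.735) and -0.06 in males (SE 0.58, adjusted p = 0.968), by edgeR. Sstr4, a somatostatin receptor gene, had log2 fold changes of -0.22 in females and 1.17 in males (adjusted p = 0.891 and 0.395). Insm1, a zinc finger factor of neuroendocrine and neuronal precursors, had -0.13 in females and -0.31 in males (adjusted p = 0.904 and 0.720). Nkx2-4, a homeobox relative of Nkx2-2 that lies 279 kb from Pax1, had 1 count in the 8 libraries together. Rin2, a Rab5 exchange factor, was the 1 tested gene in this stretch with an unadjusted p under 0.05 between the sexes over both genotypes (log2 -0.40, adjusted p = 0.565).

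For each of the 10 genes, a list of genes that act with it or are its relatives by family, called partners here, was looked at in the same fits: 54 genes on 10 lists, of which 49 were tested and 0 were called by edgeR in any comparison. The NK2 and Foxa genes, Xrn1 and the group XIV lectins are among the relatives. In females, 4 of 49 partners had an unadjusted p under 0.05, 8.16% beside 9.27% of all genes: the Ral GTPase gene Ralb at -0.51, the export gene Thoc2 at 0.75, the SNARE gene Snap25 at 0.74, and Nkx2-1. In males, 10 did, 5 up and 5 down, 20.4% of those tested beside 14.8% of all genes: Xrn1, the cytoplasmic exoribonuclease, at 1.50; Ptch1, the Hedgehog receptor, at 1.42; Plk1 at 0.87; F2rl1, a protease-activated receptor, at 0.73; Mmrn2, a ligand of Cd93, at 0.73; Rala at -0.85; Cdkn2aipnl, a binding partner of Xrn2, at -0.63; Snap25 at -0.71; Cpb2, an inhibitor of fibrinolysis, at -1.96; and Nkx2-1. Nkx2-1 belongs to a list whose 6 genes summed to at most 0.616 CPM in any library. The smallest edgeR adjusted p among these was 0.190, that of Xrn1 in males. DESeq2 calls were looked at only for partners with an unadjusted edgeR p under 0.05 in the same comparison. They are therefore no count over the 49. DESeq2 called Xrn1 and Ptch1 in males, where it called 2.66% of all genes. In the difference between the sexes' KO effects it called Xrn1 and Snap25 (2.04% of all genes). Between the sexes in WT it called Ralb, Plk1, Cep290, Xrn1, Serpinc1, Cpb2, Nxt2, Thoc1 and Snap25 (12.1% of all genes). Over both genotypes it called Proc, Serpinc1 and Cpb2 (1.3% of all genes). Over both sexes, Ptch1 at 0.83 (SE 0.34, adjusted p = 0.722) was the 1 partner under an unadjusted 0.05, 2.04% beside 6.83% of all genes. In the test of the difference between the sexes' KO effects 8 were, 16.3% beside 16.7% of all genes: Snap25 at 1.44 (SE 0.38, adjusted p = 0.243), Xrn1 at -1.59 (SE 0.39), Plk1 at -1.52 (SE 0.45), Cep290 at 1.28 (SE 0.46), Rala at 1.25 (SE 0.34), Mmrn2 at -1.20 (SE 0.41), Cpb2 at 2.92 (SE 1.13) and Nkx2-1. Between the sexes in WT, 18 of 49 partners had an unadjusted p under 0.05 (7 higher and 11 lower in females), 36.7% beside 27.3% of all genes: among the 7, Plk1 at 1.45, Xrn1 at 1.02, Ptch1 at 0.91, Mmrn2 at 0.84, Ralb at 0.67, Ddx39b at 0.66 and Napa at 0.65; among the 11, Snap25 at -1.18, Cep290 at -1.25, Pcf11 at -0.95, Rala at -0.74, Pcm1 at -0.64, Thoc1 at -1.83, Nxt2 at -1.58, Cpb2 at -4.56, Serpinc1 at -2.64, Proc at -1.94 and Nkx2-1. Over both genotypes 4 were, 8.16% beside 8.67% of all genes, all of the protein C list and lower in females: Cpb2 at -2.99, Serpinc1 at -2.63, Proc at -2.28 and F2 at -1.44. Those 4 genes are made mainly in liver, and the 7 hepatocyte markers, led by Alb and Trf, summed to 97.0 and 171 CPM in female KO, 188 and 80.0 CPM in female WT, 1205 and 139 CPM in male KO, and 1169 and 967 CPM in male WT; their part in these values was not tested. Snap25 is also one of the neuron markers above.

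The genes whose log2 CPM followed each neighbour most closely over the 8 libraries were searched among 14308 tested genes of at least 1 CPM with a proper name, and are a description without a test. Pearson's r was 0.995 for Napb with Clasp2 and for Kiz with Taf13, 0.988 for Ralgapa2 with Mgll and for Cd93 with Clec3b, and 0.987 for Nkx2-2 with Ajap1. It was 0.978 for Foxa2 with Ackr3, 0.972 for Nxt1 with Uqcc2, 0.959 for Xrn2 with Fam214a, 0.945 for Gzf1 with Polg2 and 0.917 for Thbd with Fzd7. All share the same 8 libraries, with their depth and content. Among the 10 neighbours themselves, the 3 pairs that ran most alike were Kiz with Gzf1 at 0.65, Nkx2-2 with Napb at 0.62 and Foxa2 with Thbd at 0.57, and the most opposite were Ralgapa2 with Foxa2 at -0.90 and Nkx2-2 with Cd93 at -0.78.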

How the data were processed

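Poly(A)-selected RNA of whole spine was sequenced with a stranded kit, per the labels' protocols. The authors deposited 1 table of whole-number read counts per Entrez gene; FastQC 1.0.0, MultiQC 1.0.0, HISAT2, featureCounts and mm10 are named in the submitters' processing notes, without settings. Strand setting, annotation and the handling of multiply matching reads were not given in the sources used here. Symbols came from RefSeq (25275 IDs) and GENCODE M21 (18), and 1886 IDs had no name. No per-sample column was left unused (0).

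Genes passing filterByExpr (minimum count 10; 18104 genes) were fitted with edgeR 4.0.16 (TMM, quasi-likelihood test, 4 group means; sex plus genotype for the contrasts over both) in R 4.3.3, with Benjamini-Hochberg adjustment over all tested genes at 0.05. DESeq2 1.42.0, limma 3.58.1 voom, RLE scaling, no filter, thinning to 35181518 counts, mitochondrial genes left out or as a covariate, marker covariates, 1 sex alone, a replicate block and leaving out each library were alternatives. The fitting was tested on simulated data. The 10 genes and all lists were chosen with earlier results of these data known. All 10 are named in every comparison; other genes near Pax1 and partners were named at an unadjusted p under 0.05, at most 4 per list and comparison, plus Nkx2-4, Sstr4 and Insm1. Confidence intervals are 95%.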

Additional observations from a re-analysis of the deposited data

Results flagged for a closer look

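Ralgapa2 stood out in 1 library: female WT replicate 2 had 35.4 CPM, far from the other 3 WT libraries at 14.4 to 16.1 CPM, by Dixon's test over the 4 WT libraries of both sexes. The 4 KO libraries and the 4 WT libraries were each checked this way for the 10 genes, 20 groups in all, of which chance alone flags about 1 in 20, and 1 was flagged. The same library also had 144 CPM of Cd93 and 5005 CPM of adipocyte markers.

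Nkx2-2 separated in opposite directions in the sexes, both female KO libraries being above both female WT libraries and both male KO libraries below both male WT libraries. The female minus male difference was 1.52 on the log2 scale (SE 0.62, edgeR unadjusted p = 0.0384, adjusted p = 0.287), which does not pass the threshold after adjustment. Of all tested genes, 14.2% separated in opposite directions in the sexes and 16.7% had an unadjusted p under 0.05 in this contrast.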

How the results depend on the processing

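None of the 10 genes was called in any comparison that an alternative was run for. The 19 alternatives were run for all 10 genes in the 6 comparisons with the exception of a pair: the marker list as a covariate was run for Nkx2-2, Foxa2, Thbd, Cd93 and Napb only, and the libraries of 1 sex alone give only the KO effect in that sex. The smallest adjusted p was 0.0620, for Kiz between the sexes in WT without male KO replicate 2. Over all genes, calls moved more. DESeq2 called 144 genes in females, 481 in males, 362 in the difference between the sexes' KO effects, 141 over both sexes, 2099 between the sexes in WT and 235 over both genotypes, against 0, 0, 0, 0, 1 and 3 by edgeR. Without the low-count filter there were 39 in males, 1 in the difference, 629 in WT and 12 over both genotypes; limma voom called 2 in WT and 5 over both genotypes, thinning gave 3 in WT, and the mitochondrial share as a covariate gave 2 in females, 43 in WT and 7 over both genotypes. Leaving out 1 library gave 0 to 33 in females, 0 to 9 in the difference, 1 to 1735 between the sexes in WT and 2 to 35 over both genotypes. The largest of these, in that order, were without female WT replicate 2, female WT replicate 2, male KO replicate 1 and male KO replicate 2; without male KO replicate 2 the WT sex count was 1671. The cause was not tested. Same-numbered KO and WT libraries deviated together only weakly in males (r = 0.15) and oppositely in females (r = -0.14), so the numbers were not taken as pairs; the replicate block gave 2 calls between the sexes in WT and moved no other count of calls by over 1.5 times. A block with the female KO numbers exchanged, chosen after seeing the data, gave 2 calls in females, 1 in the difference, 1 over both sexes, 9 in WT and 15 over both genotypes. Of 1070 values of the 10 genes compared, 1001 kept their direction and 69 changed it, 60 of these with a main log2 value within 0.4 of 0. Adding the mitochondrial share, the log2 values that changed sign were, in males, Kiz 0.041, Nxt1 0.033, Gzf1 0.115, Napb -0.31 and Sstr4 -0.21; in females, Insm1 0.014 and Sstr4 0.039; in the difference, Foxa2 -0.37, Thbd 0.057, Nxt1 -0.44 and Gzf1 -0.21; over both sexes, Kiz 0.084 and Cd93 -0.028; between the sexes in WT, Kiz 0.043, Foxa2 0.24, Gzf1 0.16, Ptch1 -0.12, Nxt2 0.11 and Thoc1 0.38; over both genotypes, Kiz 0.096 and Cd93 -0.14. With the marker list as a covariate they were, in females, Cd93 0.12 and Napb -0.20; in the difference, Foxa2 -0.12, Thbd 0.067, Cd93 0.075 and Napb -0.88; in WT, Cd93 -0.17 and Napb 0.55; over both genotypes, Cd93 -0.12. In the difference, Gzf1 was -0.047 with RLE scaling and with DESeq2, -0.054 with mitochondrial genes left out and -0.013 with no filter, and Thbd was 0.00114 with limma voom; in WT, Xrn2 was 0.020 with RLE scaling and with DESeq2, 0.0020 with no filter and 0.012 with mitochondrial genes left out. Values that changed sign with 1 library left out had these ranges: in males, Gzf1 -0.26 to 0.13, Napb -0.12 to 0.20 and Cst8 -8.48 to 2.13; in females, Xrn2 -0.074 to 0.036, Gzf1 -0.19 to 0.082, Pax1 -0.20 to 0.43, Insm1 -0.49 to 0.32 and Sstr4 -0.74 to 0.15; in the difference, Ralgapa2 -1.20 to 0.066, Foxa2 -0.12 to 0.42, Thbd -0.13 to 0.13, Nxt1 -0.11 to 0.37, Gzf1 -0.18 to 0.21 and Pax1 -0.54 to 0.12; over both sexes, Kiz -0.22 to 0.13, Nkx2-2 -0.48 to 0.14, Cd93 -0.11 to 0.40 and Gzf1 -0.13 to 0.021; in WT, Ralgapa2 -0.020 to 1.24, Xrn2 -0.032 to 0.045, Nxt1 -0.036 to 0.35 and Gzf1 -0.20 to 0.072; over both genotypes, Cd93 -0.035 to 0.39. With 2 libraries a group, the fits gave a median SE of 0.32 for a log2 fold change within 1 sex, and 41 to 187 counts limit Nkx2-2 further.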
